A study of Mus musculus with 30 samples.

Results

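The genes described here are 36 genes that handle calcium and potassium in smooth muscle, named as a list and not by their values. They fall into 8 roles: voltage-gated calcium entry, potassium channels, calcium release from stores, pumps and exchange, TRP channels, store-operated entry, a chloride channel, and calcium-activated kinases. Of the 36 genes, 31 could be given a level, as the sum over annotated transcripts that the authors listed for all groups, out of 14379 genes with such a sum. No annotated transcript of Cacna1c, Kcnma1, Ryr3, Slc8a1 or Trpc6 was listed in the files used, and these 5 genes were not analysed here. Another 4 genes (Cacna1d, Cacna1h, Kcnq5, Trpm4) did not reach 1 FPKM (fragments scaled to transcript length and library size) in at least 5 libraries. The remaining 27 were tested among 13223 genes.

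Arteries constrict when calcium rises in their smooth muscle cells. Calcium enters through voltage-gated channels and through TRP and store-operated channels, and it leaves the sarcoplasmic reticulum through ryanodine and inositol trisphosphate receptors. Potassium channels hold the membrane potential negative and so keep the voltage-gated channels closed, while calcium-activated chloride channels depolarise the membrane. Pumps of the SERCA family return calcium to the store and pumps of the PMCA family expel it from the cell. Angiotensin II, the vasoconstrictor peptide of the renin system, acts on this machinery through its type 1 receptor.

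Total RNA from abdominal aortas was sequenced in 6 groups of 5 libraries, all from wild-type C57BL/6 mice. Control mice received saline, and AngII mice received angiotensin II at 500 ng/kg/min for 28 days. The other 4 groups received the same infusion plus a compound: ethoxysanguinarine (AngII+ETH), baicalin (AngII+BAI) or gastrodin (AngII+GAS), each at 5 mg/kg per day, or valsartan (AngII+VAL), a blocker of the type 1 receptor, at 10.4 mg/kg per day. The labels give no animal age, and do not state that each library is a separate animal, so p-values measure the spread between these libraries. In whole tissue, fewer cells of a type and less RNA per cell cannot be told apart.

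Between 69.8 and 80.8 M reads lay behind the values of a library. All 15 smooth muscle markers were listed above 0 in every library, with summed levels of 2072 to 14490 FPKM, so every library held smooth muscle RNA. The libraries were mixed: 9 adipocyte markers summed to 3304 to 11730 FPKM and 6 red blood cell markers to 2021 to 28260. The part of these 2 lists in the results was not tested. Several libraries stood apart. AngII 2 held 1606 FPKM of 8 heart muscle markers against 2.83 to 76.5 in the other 29 libraries. AngII+BAI 3 and AngII+BAI 5 had the lowest smooth muscle scores (5.73 and 6.05, mean log2(FPKM + 1) of the 15 markers), and in AngII+BAI 1 21.5% of transcripts were at 0 against 7.99% to 13.45% elsewhere. Skeletal muscle markers summed to 652 to 3533 FPKM in all 5 AngII+VAL libraries, and every AngII library lay lower, from 11.1 upward. High sums were not particular to AngII+VAL: Control 2 held 3897 FPKM, AngII+BAI 3 3029, AngII+ETH 1 1428 and Control 1 1397. Neuron markers summed to 280 to 1187 FPKM in AngII 1, 4 and 5, to 76.3 in AngII 2, to 17.4 in AngII 3 and to 19.3 to 94.2 in Control. Macrophage markers summed to 2996 and 2017 FPKM in AngII+BAI 3 and 5 and to 238 to 1620 elsewhere. Fibroblast markers reached 9921 FPKM in AngII+BAI 5. They summed to 1908 to 5868 FPKM in AngII, all above the 1195 to 1692 of Control. The 4 listed of 10 kidney and adrenal markers summed to 71.2 to 101.3 FPKM in AngII+VAL and to 1.16 to 36.2 in AngII. The part of these last 3 lists in the results was not tested.

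By level, which FPKM allows to be compared between genes, Atp2a2 stood highest in Control at 89.5 ± 50.3 FPKM (SD, n = 5), followed by Kcnmb1 at 32.9 ± 6.32, Atp2b4 at 23.2 ± 3.15 and Cacna2d1 at 22.3 ± 3.29. Trpc1, at 1.18 ± 0.812, was the lowest of the 27 genes tested. Each gene's Control range overlapped that of the next gene in the order, so no neighbours in it were separated. Several levels rest on odd transcripts: the listed transcripts of Cacna1d and Trpm4 in the sums are retained introns, Itpr1 is represented by a transcript of 939 bases, and a median of 0% of the Trpv2 level came from protein-coding transcripts. A transcript of 834 bases held a median of 100% of the Ano1 level. For 11 members, further transcripts were listed in some groups' files and stayed out of the sums.

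**Figure D1:**
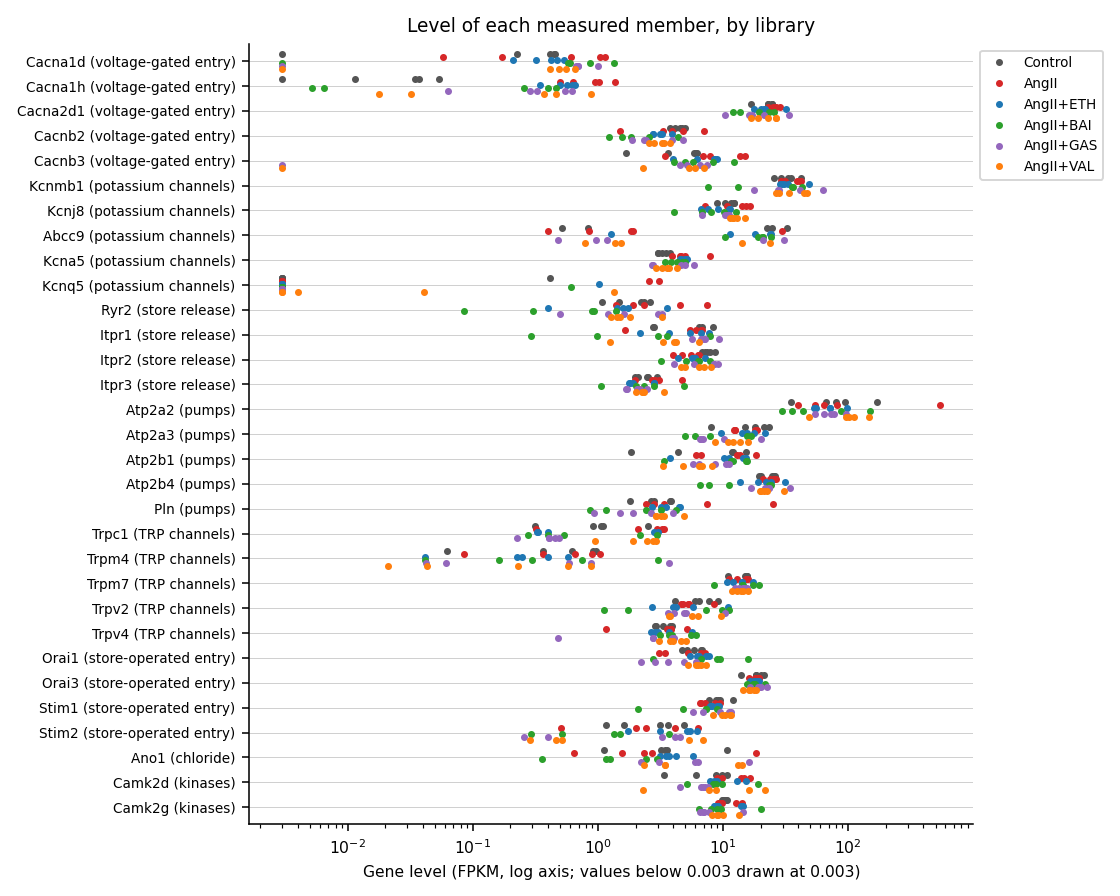
Levels of the 31 measured members, 1 row per gene, on a log FPKM axis, with 1 point per library coloured by group. Most genes keep within 1 band across the 6 groups. Abcc9 splits into a low and a high cluster, and Cacna1h in Control lies at or below 0.0537 FPKM.

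In the main test (limma on log2(FPKM + 1), Benjamini-Hochberg adjusted over all 13223 genes), no member passed the threshold of 0.05 in any comparison. For AngII against Control the share of all genes past it was 0.0%, and the same held for AngII+ETH (0.0%) and AngII+VAL (0.0%) against AngII, while AngII+BAI called 0.333% and AngII+GAS 0.0151%. A second tool, limma's voom on read numbers recovered from the FPKM values, also called 0 members in these 5 comparisons. At an unadjusted p under 0.05, 2 of 27 members were counted in AngII against Control, where 11.2% of all genes were. AngII+ETH gave 0 members against a share of 3.41% of all genes, AngII+BAI 8 against 14.6%, AngII+GAS 4 against 13.7% and AngII+VAL 2 against 10.8%. Of these counts, that of AngII+BAI (29.6% of members) is above the share of all genes, and the others are near or below it.

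The median log2 difference of the 27 members was 0.08 in AngII against Control (all genes 0.11) and -0.08 in AngII+ETH against AngII (all genes -0.09). It was -0.40 in AngII+BAI against AngII (all genes -0.01), -0.29 in AngII+GAS (all genes -0.17) and -0.14 in AngII+VAL (all genes -0.12). Positive differences were counted for 15 of 27 members in AngII against Control (66.6% of all genes), 8 in AngII+ETH (31.0%), 5 in AngII+BAI (48.7%), 7 in AngII+GAS (26.3%) and 8 in AngII+VAL (30.6%) against AngII. The 15 smooth muscle markers moved with the AngII+BAI and AngII+GAS values: 0 of 15 were positive in either, with medians of -0.64 and -0.30, and 7 and 1 of them lay lower at an unadjusted p under 0.05. The 4 compound comparisons share the 5 AngII libraries, so their values are given side by side and not counted as agreement. With neuron and skeletal muscle scores as terms of the model the AngII+BAI median was -0.08 and the AngII+VAL median 0.08, and with the smooth muscle score as a term the AngII+BAI median was -0.27.

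Ranges of 5 libraries were also compared directly. In AngII against Control, 1 of 27 members lay higher without overlap (Kcna5; 3.01% of all genes) and 1 lower (Itpr2; 0.537%). Against AngII, AngII+ETH had 0 members higher (0.0681%) and 0 lower (0.431%), AngII+BAI 0 higher (0.303%) and 1 lower (Ryr2; 1.4%), AngII+GAS 0 higher (0.106%) and 1 lower (Camk2d; 2.21%), and AngII+VAL 0 higher (0.537%) and 0 lower (2.42%). The tested members with separated ranges were thus a potassium channel, 2 release channels of the store and a kinase.

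Comparisons with Control share its 5 libraries. The adjusted threshold was passed by 0 members in each of them, and by 0.0% of all genes in AngII+ETH and in AngII+VAL, 1.44% in AngII+BAI and 0.00756% in AngII+GAS. Kcna5 in AngII+ETH lay higher without overlap (1.29% of all genes did) and Cacnb2 in AngII+VAL lower (1.15%). Positive differences numbered 13 of 27 in AngII+ETH (53.2% of all genes), 8 in AngII+BAI (59.3%), 6 in AngII+GAS (39.2%) and 12 in AngII+VAL (48.9%). As shares of the 27 members these are 48.15%, 29.63%, 22.22% and 44.44%. Those of AngII+ETH and AngII+VAL are near the share of all genes, and those of AngII+BAI and AngII+GAS are below it. The 4 values share the Control libraries, so they are not counted as agreement, and the differences were not tested.

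**Figure D2:**
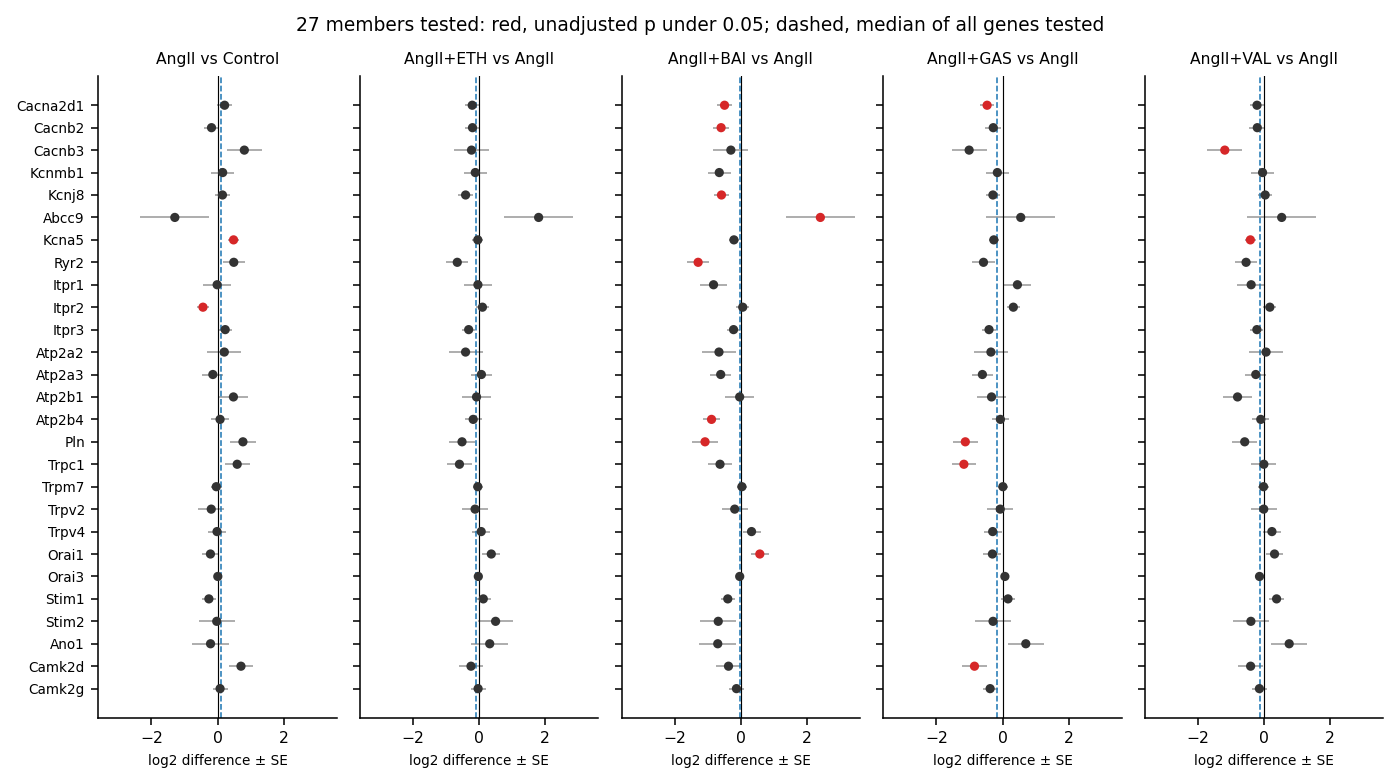
Log2 difference with its SE for the 27 tested members, 1 panel per main comparison, with members at an unadjusted p under 0.05 in red and the median of all genes tested as a dashed line. The AngII+BAI panel holds 8 red points, 6 of them left of 0, and the AngII+ETH panel holds 0.

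The voltage-gated entry genes code for the pores and helper subunits of calcium channels opened by depolarisation. Cacna1h, which codes for the T-type pore Cav3.2 (chromosome 17, 25374285 to 25433783, minus strand, GRCm38), showed the widest separation of AngII from Control. The 5 Control libraries held 0.0114, 0.0537, 0, 0.0344 and 0.0372 FPKM, or 0 to 35 reads on a transcript of 8220 bases. In AngII the values were 0.941, 1.02, 0.497, 0.628 and 1.38 FPKM, or 310 to 887 reads. All 5 AngII libraries lay above all 5 Control libraries, and the ratio of the group means was 32.6.

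Cacna1h was under the filter on low values and so has no value in the main test. In the same limma fit without the filter, over 14379 genes, its log2 difference was 0.86 (SE 0.16, adjusted p = 0.0428), and it was 1 of 4 genes past the threshold (0.0278% of genes). That fit was planned as an alternative. Under the other settings of the unfiltered fit the difference kept its sign, with adjusted p of 0.0167 to 0.618, the highest with neuron and skeletal muscle scores as terms. Leaving out 1 of the 10 libraries gave adjusted p of 0.0193 to 0.176, and the call held only without AngII 2 or AngII 3. The gene also entered the Control list through its AngII mean, since a transcript was listed when its mean reached 0.5 FPKM in AngII or in the group itself. Such a gene had to differ if it was low in Control: without the filter, 3.04% of genes lay higher without overlap in AngII and 0.494% lower.

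Under the compounds the group means of Cacna1h stood between those levels. In AngII+BAI, AngII+GAS and AngII+VAL the mean was under 0.5 FPKM (0.226, 0.370 and 0.351), so there too the gene was listed only through AngII, where it is high, and the differences below describe a gene chosen that way. AngII+ETH held 0.342, 0.659, 0.564, 0.499 and 0.616 FPKM, all above Control and overlapping AngII. AngII+BAI held 0.00523, 0.464, 0.00643, 0.396 and 0.259 FPKM, all below AngII, with 2 libraries at Control levels (log2 difference from AngII -0.62, SE 0.16, in the unfiltered limma fit, where 1.54% of genes lay lower without overlap). AngII+GAS ran from 0.0639 to 0.626 FPKM and AngII+VAL from 0.0177 to 0.875, both overlapping AngII, with log2 differences of -0.46 and -0.51 in the same fit. Leaving out 1 library at a time moved the AngII+BAI difference between -0.70 and -0.54, and quantile normalization gave -0.37.

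The helper subunit genes had higher mean levels than Cacna1h. Cacna2d1 codes for the alpha-2-delta subunit, which brings pores to the membrane. Control held 22.8, 24.7, 24.4, 16.6 and 22.7 FPKM of it and AngII 25.9, 26.3, 28.7, 22.8 and 25.3, with overlapping ranges. Values in AngII+BAI were 12, 25.4, 13.6, 23.1 and 19.4 FPKM (log2 difference from AngII -0.49, SE 0.22, limma adjusted p = 0.31), and in AngII+GAS 17, 10.4, 21.4, 16.1 and 33.7 (-0.47, SE 0.22, adjusted p = 0.36).

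Cacnb3, a beta subunit gene, held 6.1, 1.68, 3.64, 5.86 and 6.17 FPKM in Control and 14.9, 3.43, 7.9, 6.92 and 13.6 in AngII. In AngII+VAL it held 2.29, 5.34, 0, 7.01 and 5.98 FPKM, a log2 difference from AngII of -1.19 (SE 0.53, limma adjusted p = 0.41). The ranges overlap, and 1 AngII+VAL and 1 AngII+GAS library were listed at 0. Without AngII+VAL 3, a library listed at 0, the AngII+VAL difference was -0.68, and it was -0.54 with neuron and skeletal muscle scores as terms. Cacnb2, the other beta subunit gene, ran from 3.77 to 4.96 FPKM in Control, 1.51 to 7.01 in AngII and 1.23 to 4.39 in AngII+BAI. Its difference was -0.60 (SE 0.24, limma adjusted p = 0.25) from AngII and -0.78 (SE 0.24, adjusted p = 0.0861) from Control. Without AngII+BAI 3 and 5 the first became -0.33.

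Among the potassium channel genes, Kcna5 (Kv1.5, a voltage-gated channel; chromosome 6, 126532551 to 126535412, minus strand) had the smallest p of the members in AngII against Control. It held 3.02, 3.28, 3.04, 3.76 and 3.5 FPKM in Control and 4.93, 3.94, 4.62, 4.5 and 7.84 in AngII. All AngII values lay above all Control values, a log2 difference of 0.49 (SE 0.16, limma adjusted p = 0.26), with AngII 5 far above the rest. Of all genes tested, 3.01% lay higher without overlap in this comparison, and 1 of 27 members did. The difference was 0.31 with neuron and skeletal muscle scores as terms.

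The compound groups placed Kcna5 as follows. AngII+ETH held 4.54, 4.58, 5.01, 5.17 and 5.02 FPKM, again all above Control (log2 difference from Control 0.44, SE 0.16, limma adjusted p = 0.96). That is 1 of 27 members at an unadjusted p under 0.05 against 5.18% of all genes. AngII+VAL held 3.58, 4.3, 2.89, 3.67 and 3.25 FPKM, a log2 difference from AngII of -0.42 (SE 0.16, adjusted p = 0.34) and from Control of 0.07, with ranges that overlap both. The difference from AngII was -0.18 with the same terms. AngII+BAI ran from 3.44 to 5.01 FPKM and AngII+GAS from 2.69 to 5.91.

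**Figure D3:**
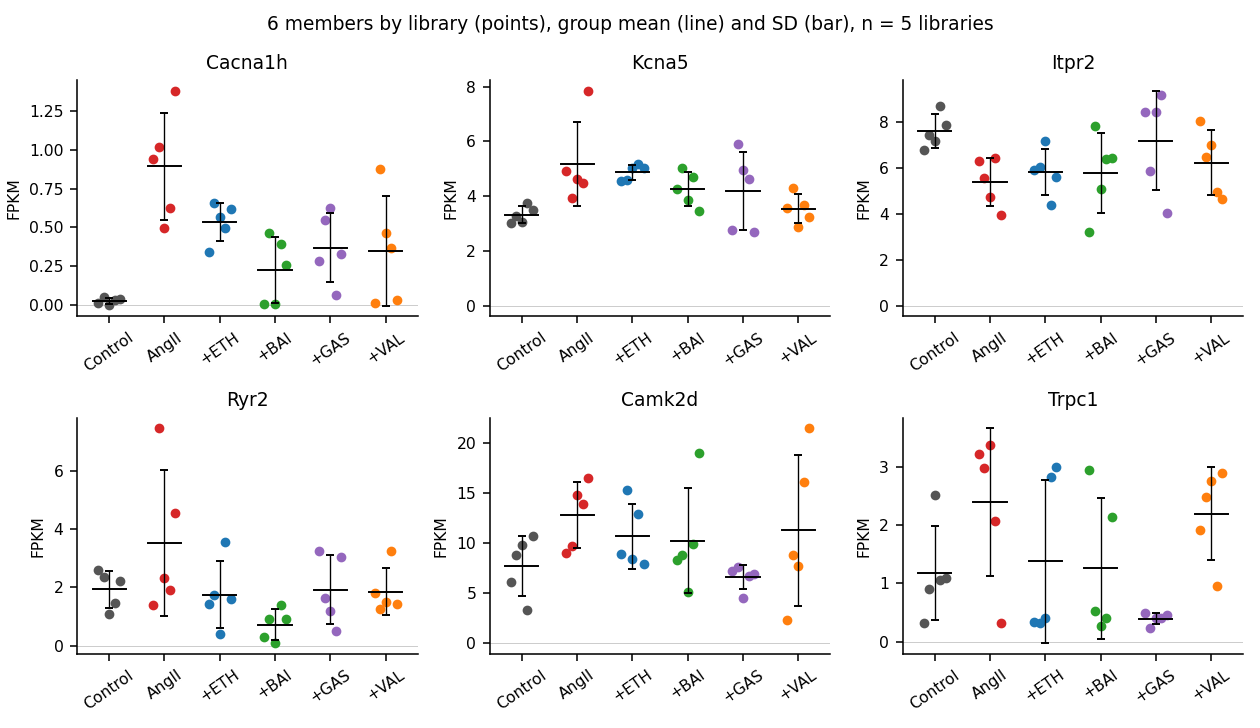
FPKM of Cacna1h, Kcna5, Itpr2, Ryr2, Camk2d and Trpc1 by group, with 1 point per library, the mean of 5 libraries as a line and the SD as a bar. For Cacna1h and Kcna5 all AngII points lie above the Control points, for Itpr2 all lie below, and for Ryr2 all AngII+BAI points lie below the AngII points.

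Abcc9 codes for SUR2, and Kcnj8 for Kir6.1, the subunits of the vascular ATP-sensitive potassium channel. Abcc9 split within groups. Control held 0.519, 22.6, 32.5, 0.828 and 24.9 FPKM, and AngII 29.5, 1.83, 0.398, 1.9 and 0.849, so AngII 1 was high and the other 4 low. In AngII+ETH the values were 11.3, 23.6, 18, 1.27 and 24.3 FPKM, and in AngII+BAI 19, 24.1, 10.3, 21 and 20.6, all 5 on the high side.

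The AngII+BAI difference for Abcc9 was 2.40 (SE 1.04, limma adjusted p = 0.28), and that of AngII+ETH 1.80 (SE 1.04, adjusted p = 0.99). AngII+GAS (0.479 to 30.8 FPKM) and AngII+VAL (0.79 to 23.8) were mixed. The high values sit in 1 protein-coding transcript, at a median of 99.2% of the gene's level, and at 0.00523 to 32.5 FPKM across Control and AngII libraries. Other Abcc9 transcripts are listed in some groups only, so how reads were divided between transcripts bears on these values and was not tested.

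Kcnj8 did not split. It held 12.2, 12.3, 10.3, 11.6 and 8.89 FPKM in Control, 14.1, 7.17, 15.2, 10.8 and 16.6 in AngII, and 12.7, 6.81, 7.97, 10.2 and 4.05 in AngII+BAI. The last differed from AngII by -0.59 (SE 0.22, limma adjusted p = 0.21) with overlapping ranges, and by -0.32 without AngII+BAI 3 and 5. AngII+ETH held 7.58, 11.5, 6.68, 11.1 and 9.06 FPKM (-0.41, SE 0.22, adjusted p = 0.99). The ratio of Kcnj8 to Abcc9 followed the Abcc9 split, with a median of 0.544 in Control, 5.70 in AngII and 0.485 in AngII+BAI.

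Kcnmb1, the beta-1 subunit that raises the calcium sensitivity of the large-conductance channel, held 33.4, 29.1, 42.1, 25.4 and 34.7 FPKM in Control and 39.1, 41.4, 42.2, 28.9 and 31.6 in AngII. In AngII+BAI the values were 36.5, 43.1, 7.65, 35.9 and 13.1 FPKM, low in libraries 3 and 5 (log2 difference from AngII -0.65, SE 0.34, limma adjusted p = 0.38). Its pore gene Kcnma1 was not analysed here. Kcnq5, a voltage-gated channel gene, was listed at 0 in 22 of 30 libraries. Its highest levels were 2.54 FPKM in AngII 1 and 3.07 in AngII 5, the libraries with the 2 highest neuron marker sums (906 and 1187 FPKM). The next highest were 1.34 in AngII+VAL 4 and 1.02 in AngII+ETH 4, while AngII+ETH 1, with a neuron sum of 632, was listed at 0. The part of neuron RNA in these levels was not tested. The Kcnq5 mean was 1.12 FPKM in AngII and at most 0.278 in the other groups, under 0.5. The gene was thus listed there only through AngII, where it is high, and its levels describe a gene chosen that way.

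Store release genes code for the channels of the sarcoplasmic reticulum. Itpr2, a receptor for inositol trisphosphate (chromosome 6, 146108299 to 146502223, minus strand), held 6.78, 7.42, 7.18, 8.7 and 7.88 FPKM in Control and 6.29, 5.54, 4.74, 6.43 and 3.95 in AngII. Every AngII value lay below every Control value, a log2 difference of -0.44 (SE 0.19, limma adjusted p = 0.39). Such separation downward was found for 0.537% of all genes and for 1 of 27 members. With neuron and skeletal muscle scores as terms it was -0.35, and with the smooth muscle score -0.38.

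In the compound groups Itpr2 overlapped AngII throughout: 4.38 to 7.18 FPKM in AngII+ETH, 3.19 to 7.82 in AngII+BAI, 4.05 to 9.19 in AngII+GAS and 4.64 to 8.04 in AngII+VAL. Itpr3 ran from 1.06 to 4.87 FPKM and Itpr1 from 0.29 to 9.31 over all libraries, with no p under 0.05 in any main comparison.

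Ryr2, the ryanodine receptor of heart and vascular muscle (chromosome 13, 11553102 to 12106945, minus strand), had the smallest p of the members in AngII+BAI against AngII. It held 2.6, 2.34, 1.09, 1.47 and 2.2 FPKM in Control, 1.39, 7.46, 2.33, 1.9 and 4.57 in AngII and 0.304, 0.929, 0.0855, 1.38 and 0.897 in AngII+BAI. All AngII+BAI values lay below all AngII values, the lowest AngII value (1.39) just above the highest AngII+BAI value (1.38). The Ryr2 level is a sum over 4 transcripts, and its AngII+BAI mean was 0.72 FPKM. Not all of these transcripts can have reached a mean of 0.5 FPKM there. The rest were listed only through AngII, where the gene is high, so this separation partly describes transcripts chosen that way. The log2 difference was -1.29 (SE 0.34, limma adjusted p = 0.0822), and 1.4% of all genes lay lower without overlap. Without AngII 2, the library with heart muscle markers, it was -1.03 (adjusted p = 0.134), and without AngII+BAI 3 and 5 it was -1.16. With unlisted transcripts set to 0 it was -0.78. Against Control it was -0.80 (SE 0.34, adjusted p = 0.19).

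Against AngII, Ryr2 differed by -0.66 (SE 0.34, limma adjusted p = 0.99) in AngII+ETH, with values of 1.42, 1.73, 0.398, 3.57 and 1.59 FPKM, and by -0.40 without AngII 2. AngII+GAS (0.498 to 3.25 FPKM) and AngII+VAL (1.27 to 3.27) overlapped both AngII and Control.

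Pumps return or expel calcium. Atp2a2, the SERCA2 pump of the store, held 80.5, 170, 67, 94.5 and 35.2 FPKM in Control and 82, 545, 64.5, 54.5 and 39.7 in AngII. AngII 2 stood far above the rest, and 543 of its 545 FPKM came from 1 protein-coding transcript. In the compound groups the gene ran from 29.7 to 151 FPKM. The AngII against Control difference was 0.21 (SE 0.51, limma adjusted p = 0.92) with AngII 2 and -0.44 (SE 0.41, adjusted p = 0.70) without it.

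Pln codes for phospholamban, which restrains SERCA2. It held 3.74, 2.65, 3.82, 1.81 and 2.79 FPKM in Control and 2.43, 25.1, 2.82, 3.4 and 7.44 in AngII, again led by AngII 2. In AngII+BAI it held 3.17, 1.16, 2.41, 0.867 and 4.19 FPKM, and in AngII+GAS 0.926, 1.89, 4.01, 2.67 and 1.51. The log2 differences from AngII were -1.08 (SE 0.39, limma adjusted p = 0.19) and -1.12 (SE 0.39, adjusted p = 0.23), which became -0.59 and -0.63 without AngII 2. Against Control, AngII differed by 0.77 (SE 0.39, adjusted p = 0.46) and by 0.27 without AngII 2.

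**Figure D4:**
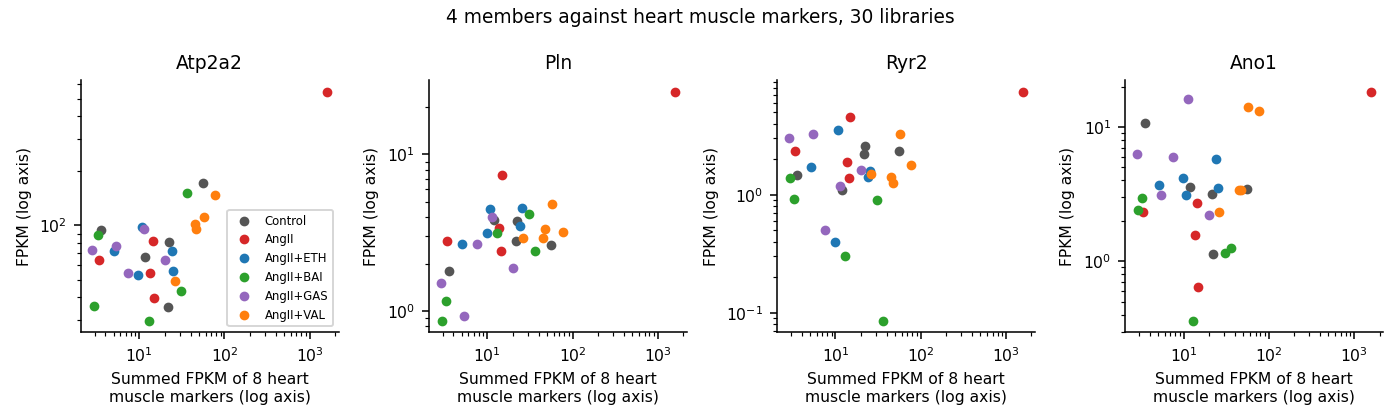
FPKM of Atp2a2, Pln, Ryr2 and Ano1 against the summed FPKM of 8 heart muscle markers, both on log axes, 1 point per library. AngII 2 lies alone at 1606 FPKM of markers and is the highest library for each of the 4 genes.

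In AngII 2 all 8 heart muscle markers were above 0, among them Actc1 at 503 FPKM, Myh6 at 177 and Nppa at 61.4. Heart muscle uses Atp2a2, Pln and Ryr2 as its own store machinery, and the part of such RNA in the AngII means was not tested beyond leaving the library out. The ratio of Pln to Atp2a2 had a median of 0.0465 in Control, 0.0461 in AngII, 0.0488 in AngII+ETH, 0.0242 in AngII+BAI, 0.0295 in AngII+GAS and 0.0351 in AngII+VAL, with overlapping ranges.

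Atp2b4, the PMCA4 pump of the cell membrane, held 25.8, 24.5, 26.1, 20.2 and 19.4 FPKM in Control and 26.4, 23.6, 25.6, 25.7 and 20.9 in AngII. In AngII+BAI it held 6.53, 24.1, 7.78, 23.1 and 11.1 FPKM, with libraries 1, 3 and 5 below every other library of the study. The log2 difference was -0.89 (SE 0.26, limma adjusted p = 0.13) from AngII and -0.81 (SE 0.26, adjusted p = 0.0995) from Control. Those 3 libraries are the ones that stood apart by zeros or by smooth muscle score. Without AngII+BAI 2 the difference from AngII became -1.11 (adjusted p = 0.0323), without AngII+BAI 3 and 5 it became -0.61 (adjusted p = 0.23), and with array weights it was -0.395 (adjusted p = 0.583).

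Atp2b1, the PMCA1 pump, held 13.8, 6.65, 18.3, 6.11 and 13 FPKM in AngII and 3.32, 6.43, 4.81, 6.82 and 8.16 in AngII+VAL, while Control spread from 1.83 to 15.2. The AngII+VAL difference was -0.81 (SE 0.43, limma adjusted p = 0.50) and turned to 0.084 with neuron and skeletal muscle scores as terms. Atp2a3, the SERCA3 pump, ran from 8.04 to 23.2 FPKM in Control, from 4.94 to 16.9 in AngII+BAI and from 6.6 to 20.2 in AngII+GAS. Both differed from Control by -0.75 (SE 0.31, adjusted p = 0.19 and 1.0). Atp2a3 was the 1 of 27 members at an unadjusted p under 0.05 in AngII+GAS against Control, where 3.7% of all genes were. AngII+BAI against Control gave 5 (Cacnb2, Atp2b4, Stim1, Ryr2, Atp2a3, all lower) against 19.0% of all genes, or 5.32% counting lower genes only, and AngII+VAL against Control gave 0 against 3.84%.

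The TRP genes code for cation channels opened by stretch, lipids or receptors. Trpc1 held 0.317, 0.913, 2.52, 1.06 and 1.09 FPKM in Control, 3.23, 2.99, 3.38, 2.08 and 0.322 in AngII and 0.488, 0.226, 0.41, 0.405 and 0.453 in AngII+GAS. Only AngII 5 reached down into the AngII+GAS range. The log2 difference was -1.17 (SE 0.37, limma adjusted p = 0.20), and -1.05 to -1.48 when 1 library was left out. The AngII+GAS mean of Trpc1 was 0.396 FPKM, under 0.5, so it was listed there only through AngII, where it is high. This difference describes a gene chosen that way. In AngII+ETH 3 libraries (0.334, 0.327, 0.402) were as low as AngII+GAS and 2 (2.83, 3) as high as AngII, and AngII+VAL held 1.92, 2.48, 2.76, 0.951 and 2.9.

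Trpm7, a channel fused to a kinase, was the TRP gene with the highest level and among the steadiest members. Control held 15.5, 11, 15.5, 14.9 and 15.3 FPKM and AngII 15.3, 15.3, 15.8, 12.8 and 11.1. Its log2 differences in the 5 main comparisons ran from -0.04 to 0.03 with an SE of 0.16. Trpv4, which opens on swelling and stretch, ran from 0.483 to 6.12 FPKM over all libraries, and Trpv2 from 1.11 to 11.2, neither with a p under 0.05 in a main comparison.

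Store-operated entry joins the store sensors STIM to the ORAI pores. Orai3, the most abundant of the 4, held 14, 18.5, 21.1, 20.1 and 18.5 FPKM in Control and 18.1, 19.2, 19.4, 16.1 and 19.2 in AngII, and its log2 differences in the main comparisons ran from -0.14 to 0.07 with an SE of 0.11. Orai1 ran from 3.05 to 7.12 FPKM in AngII, from 2.77 to 15.8 in AngII+BAI and from 2.2 to 6.11 in AngII+GAS. The AngII+BAI difference was 0.57 (SE 0.27, limma adjusted p = 0.33), and 0.20 without AngII+BAI 3 and 5. Stim1 ran from 7.79 to 12.1 FPKM in Control and from 2.09 to 8.9 in AngII+BAI (-0.66, SE 0.22, adjusted p = 0.11 against Control). Leaving out AngII+BAI 2 or AngII+BAI 4 gave -0.74 (adjusted p = 0.0495) or -0.80 (adjusted p = 0.0362). Stim2 ran from 0.257 to 6.91 FPKM over all libraries.

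Ano1, the calcium-activated chloride channel, held 1.12, 3.43, 3.58, 10.7 and 3.17 FPKM in Control and 2.73, 18.3, 2.34, 1.56 and 0.643 in AngII. The highest value was again AngII 2, where 14.6 FPKM came from 1 transcript of 4585 bases. That transcript was at 0 in AngII 1, 3, 4 and 5, where a transcript of 834 bases gave the level. It held 7.08 FPKM in Control 4, 12.9 in AngII+GAS 3, and 11.4 and 11.8 in AngII+VAL 1 and 4. Heart muscle markers summed to 3.52 FPKM in Control 4, 11.3 in AngII+GAS 3, 76.5 in AngII+VAL 1 and 57.2 in AngII+VAL 4. The part of heart muscle RNA in these levels was not tested. How reads were divided between Ano1 transcripts bears on these values and was not tested. In AngII+VAL Ano1 held 13.1, 3.42, 2.34, 14.1 and 3.41 FPKM, and in AngII+GAS 3.1, 2.23, 16.2, 5.97 and 6.31. The differences from AngII were 0.76 (SE 0.55, limma adjusted p = 0.64) and 0.70 (SE 0.55, adjusted p = 0.56), and without AngII 2 they were 1.33 (adjusted p = 0.217) and 1.27 (adjusted p = 0.231).

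The kinases CaMKII delta and gamma are switched on by calcium bound to calmodulin. Camk2d held 9.02, 9.77, 14.8, 13.9 and 16.6 FPKM in AngII and 7.19, 7.62, 4.54, 6.68 and 6.88 in AngII+GAS. All AngII+GAS values lay below all AngII values, and within the Control range of 3.35 to 10.7 FPKM. The log2 difference was -0.85 (SE 0.37, limma adjusted p = 0.31), and 2.21% of all genes lay lower without overlap in this comparison. It was -0.59 with neuron and skeletal muscle scores as terms.

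Camk2d in AngII against Control differed by 0.71 (SE 0.37, limma adjusted p = 0.48), while AngII+BAI (5.12 to 19.1 FPKM) and AngII+VAL (2.27 to 21.5) spread widely. Camk2g held 10.7, 10.2, 9.85, 9.95 and 10.7 FPKM in Control and 14.2, 9.43, 9.87, 9.04 and 12.8 in AngII. AngII+BAI 1 (20.3 FPKM) and AngII+GAS 5 (14.4) were well above the rest of their groups.

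Over all 6 groups at once, limma's F test called 0 members and 0.0% of genes after adjustment. At an unadjusted p under 0.05 it gave 6 of 27 members (Atp2b4, Ryr2, Stim1, Kcna5, Trpc1, Orai1) against 15.8% of all genes, with the smallest adjusted p at 0.252 for Atp2b4.

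Members followed the smooth muscle content of a library to different degrees. Across the 30 libraries, log2(FPKM + 1) of each of 27 members was set against the smooth muscle score, with permutation tests adjusted over the 27 for Pearson's r and for Spearman's rho. Kcnmb1 had r = 0.92 and rho = 0.83 (permutation p = 1e-05 for both, the smallest that 100000 resamples give; adjusted p = 0.00027 and 0.000135), and r = 0.80 without the 2 libraries farthest from the median score, AngII+BAI 3 and 5. Cacna2d1 had r = 0.60 and rho = 0.76 (permutation p = 0.0006 and 1e-05, adjusted 0.00452 and 0.000135), with r = 0.65 without those libraries, and Camk2g r = 0.60 and rho = 0.67 (p = 0.00067 and 9e-05, adjusted 0.00452 and 0.00081), with r = 0.69. For Cacnb2, r = 0.62 and rho = 0.54 (permutation p = 0.00026 and 0.0021, adjusted 0.00351 and 0.0113), and r became 0.40.

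Atp2b4, with r = 0.58 and rho = 0.53 (permutation p = 0.00311 and 0.00314, adjusted 0.0168 and 0.0141), rested on AngII+BAI 3 and 5, since r was 0.21 without them. Those 5 were the members past the threshold on both measures. With values centred on their group means r was 0.93 for Kcnmb1, 0.52 for Cacna2d1, 0.63 for Camk2g, 0.59 for Cacnb2 and 0.47 for Atp2b4. Itpr2 ran the other way by rank (rho = -0.60, permutation p = 0.00056, adjusted p = 0.00378), with r = -0.37 (p = 0.0416, adjusted p = 0.125) and r = -0.73 without the same 2 libraries. Kcna5 (r = 0.08), Trpm7 (r = -0.22) and Orai3 (r = 0.15) had adjusted permutation p-values of 0.47 or more. Both axes come from the same library and share its composition.

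**Figure D5:**
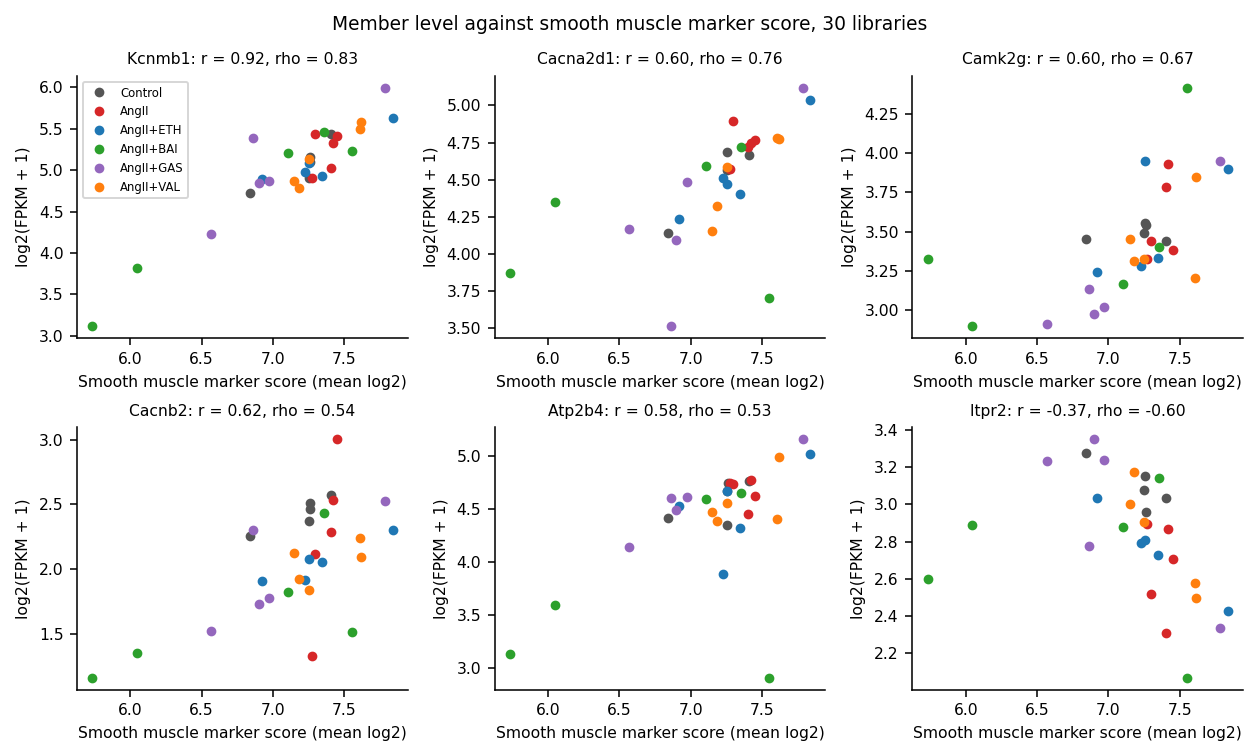
Log2(FPKM + 1) of 6 members against the mean log2(FPKM + 1) of 15 smooth muscle markers, 1 point per library coloured by group. Kcnmb1 rises along a line (r = 0.92), while the Atp2b4 slope hangs on AngII+BAI libraries at the lower left, and Itpr2 slopes down.

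The upstream sequence of Kcnmb1, the member that followed the smooth muscle score most closely, is shown beside that of Cacna2d1, the next by rank. Both are the 250 bases before the gene start on the plus strand (RefSeq, GRCm38.p6), at chr11:33962763-33963012 and chr5:15934441-15934690, with matches to the GC box (GGGCGG on either strand) in capitals.
Kcnmb1: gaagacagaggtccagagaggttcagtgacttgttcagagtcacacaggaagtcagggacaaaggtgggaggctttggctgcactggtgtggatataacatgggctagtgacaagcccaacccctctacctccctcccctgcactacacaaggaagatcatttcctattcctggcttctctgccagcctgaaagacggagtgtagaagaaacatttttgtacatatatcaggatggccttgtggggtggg
Cacna2d1: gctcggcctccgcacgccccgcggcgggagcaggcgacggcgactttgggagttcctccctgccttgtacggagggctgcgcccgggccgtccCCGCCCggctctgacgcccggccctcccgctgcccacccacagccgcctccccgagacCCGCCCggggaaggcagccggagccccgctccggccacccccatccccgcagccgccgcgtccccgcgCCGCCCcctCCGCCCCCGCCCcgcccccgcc

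Kcnmb1 holds 0 GC boxes in this stretch and Cacna2d1 holds 5, counted without overlap. RefSeq promoter windows, which also take in the first bases of the gene, were matched for 30 of the 36 genes (39 promoters). Those of Atp2a2, Cacna1h, Camk2g, Itpr1, Ryr3 and Trpm4 were not in the table. A GC box lay in 22 of the 39 promoters and in 35.7% of all 32851 promoters. An E-box of the form CAGCTG, the same on both strands, lay in 9 of 39 (16.3% of all), an MCAT motif (CATTCC on either strand) in 4 of 39 (14.7% of all), and a CArG box, the motif of serum response factor, in 1 of 39 (1.63% of all), that of Trpc6. The motifs and the 2 promoters shown were chosen after the values were seen, and matches are letters only.

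Of 110 other genes of the same pathways, 67 were tested and 0 passed the adjusted threshold in each of the 5 main comparisons. At an unadjusted p under 0.05, 14 were higher and 2 lower in AngII against Control. The compound comparisons with AngII gave 1 higher and 4 lower in AngII+ETH, 2 and 12 in AngII+BAI, 0 and 15 in AngII+GAS and 4 and 11 in AngII+VAL. Of all genes, 9.51% were higher and 1.69% lower in AngII against Control. The shares against AngII were 0.439% and 2.97% in AngII+ETH, 5.35% and 9.29% in AngII+BAI, 1.23% and 12.4% in AngII+GAS, and 1.78% and 9.02% in AngII+VAL.

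Other potassium channel genes were the longest of these lists. Of 17 tested, 7 were higher in AngII against Control and 0 lower (median log2 difference 0.34, all genes 0.11), and 9 were lower in AngII+BAI, 9 in AngII+GAS and 7 in AngII+VAL against AngII. Among them, Kcna6 differed by 1.12 and Kcnq3 by 0.88 in AngII against Control. Neuron markers summed to 280 to 1187 FPKM in 3 AngII libraries, but to 76.3 in AngII 2 and 17.4 in AngII 3. The part of neuron RNA in these values was not tested beyond the terms that follow. With neuron and skeletal muscle scores as terms the count was 1 in AngII against Control, 6 lower in AngII+BAI, 4 in AngII+GAS and 0 in AngII+VAL. In AngII+ETH it was 3 lower without and with these terms (median -0.37 and -0.36). The share of all genes at that p with these terms is not given here.

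Among the pathway genes with the smallest p in AngII against Control, Fkbp1b, whose protein binds ryanodine receptors, held 1.65, 0.929, 0.855, 1.08 and 1.57 FPKM in Control and 8.05, 1.92, 3.96, 3.02 and 12.8 in AngII (log2 difference 1.43, SE 0.35, limma adjusted p = 0.163), without overlap. Its highest values were in AngII 1 and 5, which had the highest neuron marker sums (906 and 1187 FPKM), and the part of neuron RNA was not tested. Tmem110 (also named Stimate), which sets STIM at contacts with the cell membrane, held 37.2, 41, 50.6, 39.9 and 47 FPKM in Control and 35.6, 33.5, 25.4, 19.2 and 24.2 in AngII (-0.65, SE 0.17, adjusted p = 0.163). Its AngII values all lay below Control.

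For AngII+BAI against AngII, Kcna1, a voltage-gated channel gene, differed by -1.84 (SE 0.45, limma adjusted p = 0.0635). It reached 10.6 FPKM in AngII 5, the library with the highest neuron sum, and was listed at 0 in 4 of 5 AngII+BAI libraries. The AngII+BAI mean was 0.102 FPKM, under 0.5, so the gene was listed there only through AngII, where its mean was 4.12. Its difference describes a gene chosen that way.

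In AngII+GAS, Calm3, a calmodulin gene, held 50.9, 47.8, 58.9, 54.3 and 64.6 FPKM against 96.4, 77.8, 95.2, 67.7 and 130 in AngII (-0.72, SE 0.17, limma adjusted p = 0.167), without overlap. Kcnj12, an inward rectifier, differed from AngII by -1.07 (SE 0.30, adjusted p = 0.173) in AngII+GAS and -1.01 (SE 0.30, adjusted p = 0.99) in AngII+ETH, and P2rx7, an ATP-gated channel, by -0.76 (SE 0.31, adjusted p = 0.99) in AngII+ETH. The Kcnj12 means were 0.244 FPKM in AngII+GAS and 0.337 in AngII+ETH, both under 0.5. The gene was thus listed there only through AngII, where its mean was 1.71, and its differences describe a gene chosen that way.

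In AngII+VAL the 2 pathway genes with the smallest p were Cacna1s and Atp2a1, the calcium channel and pump of skeletal muscle. Cacna1s held 17.9, 11.3, 2.89, 8.17 and 5.52 FPKM against at most 0.0209 in AngII (log2 difference 3.13, SE 0.65, limma adjusted p = 0.115), and Atp2a1 differed by 5.91 (SE 1.40, adjusted p = 0.115). All 10 listed skeletal muscle markers were above 0 in each AngII+VAL library, and the same 2 genes were also high in the Control libraries with skeletal markers (Atp2a1 at 179 and 578 FPKM in Control 1 and 2).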

How the data were processed

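The authors deposited FPKM values per transcript in 1 file per library, for annotated and assembled transcripts. The unit was inferred from the values. Per the submitters' processing notes the build was mm10 and limma was used. Aligner and quantifier: not given in the sources used here. Libraries were made, per the labels' protocols, with NEBNext rRNA depletion and the NEBNext Ultra kit, which does not mark strand, so overlapping and antisense genes are uncertain. Gene levels (14379 genes, GENCODE M21) are sums over the 27797 annotated transcripts that every file lists. Genes at 1 FPKM or more in at least 5 of 30 libraries (13223) were tested with limma 3.58.1 (trend, robust) in R 4.3.3 on log2(FPKM + 1), 1 mean per group, 24 residual and 2.58 prior degrees of freedom, two-sided, with Benjamini-Hochberg adjustment over all genes. Log2 differences understate changes of low genes. Whole reads were recovered from FPKM, length and depth: 98.6% to 99.7% of low values came within 0.1 read of a whole number. A floor of 3 reads at 2 kb was 0.0186 to 0.0215 FPKM, covering counting error only. On data simulated for AngII against Control (13223 genes) 67% of genes changed by log2 1 and 93% of those changed by log2 2 were called, and 4 unchanged genes were called. Changes were planted only in genes with a Control mean log2(FPKM + 1) above 1, and values were drawn as normal. These shares thus do not cover lower genes or libraries that stand apart. Correlations used scipy 1.17.1. Alternatives covered the filter, the pseudocount, normalization, weights, voom, extra terms and leaving out libraries. The members, lists and tests were chosen with earlier results of these data known. Members given in full are those past the adjusted threshold, those whose ranges do not overlap in a main comparison, the 3 with the smallest p in each, and the highest of each role. Of the pathway lists, the 2 genes with the smallest p in each main comparison are given, except 1 that is not reported here, and Kcna6 and Kcnq3 were named after their values were seen.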

Additional observations from a re-analysis of the deposited data

Results flagged for a closer look

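In a group of 5 libraries, 1 library was marked when its gap to the nearest of the other 4 was over 0.71 of the group's whole range. Of 114 groups looked at (19 members given in full, 6 groups), 16 were marked. For normal values chance marks about 1 in 20. The rule was used on FPKM without a log, and the 19 members were partly chosen by their values. That rate need not hold here, and the count is not set against it.

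AngII 2 was marked for Atp2a2 (545 FPKM, others 39.7 to 82.0), Pln (25.1, others 2.43 to 7.44) and Ano1 (18.3, others 0.643 to 2.73). This library held the heart muscle markers. AngII 1 was marked for Abcc9 (29.5 FPKM, others 0.398 to 1.90) and AngII 5 for Kcna5 (7.84, others 3.94 to 4.93).

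Control 4 was high for Ano1 (10.7 FPKM, others 1.12 to 3.58) and low for Cacna2d1 (16.6, others 22.7 to 24.7), and Control 2 was low for Trpm7 (11.01, others 14.9 to 15.5).

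Among the compound groups, AngII+ETH 4 was high for Cacna2d1 (31.8 FPKM, others 17.9 to 21.8) and Kcnmb1 (48.5, others 28.8 to 32.8). AngII+BAI 1 was high for Camk2g (20.3, others 6.44 to 9.55). AngII+GAS 5 was high for Camk2g (14.4, others 6.53 to 7.79) and AngII+GAS 4 low for Kcnj8 (6.82, others 10.3 to 11.2). AngII+VAL 5 was high for Atp2b4 (30.7, others 19.8 to 22.5), and AngII+VAL 4 for Pln (4.86, others 2.91 to 3.35) and Ryr2 (3.27, others 1.27 to 1.80).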

How the results depend on the processing

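No paired analysis was possible because the labels give no replicate numbers: the numbers used here only name libraries, in accession order. Of 335 alternative values of the named members, 334 kept their direction, and 319 kept both direction and side of the adjusted threshold. The exception was Atp2b1 in AngII+VAL against AngII, at 0.084 with neuron and skeletal muscle scores as terms; the cause was not tested. Leaving out 1 library gave 0 to 1 members past the adjusted threshold in AngII+BAI against AngII (Atp2b4, without AngII+BAI 2) and 0 to 3 in AngII+BAI against Control (Cacnb2, Atp2b4 and Stim1 without AngII+BAI 2; Atp2b4 and Stim1 without AngII+BAI 4). Without the filter, AngII against Control called 1 member, Cacna1h, an alternative that admits more genes. This gene was listed in Control only through its AngII mean, where it is high, so the call describes a gene chosen that way.

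Counts of members at an unadjusted p under 0.05 moved as follows, and the cause was not tested. The share of all genes at that p is not given here for each setting. These counts therefore describe the settings and are not read as a result about the members. In AngII against Control (2) the count was 0 with neuron and skeletal muscle scores as terms, 1 with quantile normalization and 1 to 4 leaving out 1 library. In AngII+ETH against AngII (0) it was 2 with array weights and 0 to 4 leaving out 1 library. In AngII+BAI against AngII (8) it was 4 with the 2 groups alone, 4 with array weights, 5 with neuron and skeletal muscle scores, 5 with the smooth muscle score and 5 to 12 leaving out 1 library. In AngII+GAS against AngII (4) it was 10 with array weights, 2 with neuron and skeletal muscle scores, 7 with unlisted transcripts set to 0 and 2 to 9 leaving out 1 library. In AngII+VAL against AngII (2) it was 1 with TMM-type factors, 0 with neuron and skeletal muscle scores, 1 with a pseudocount of 0.1, 1 with quantile normalization and 0 to 4 leaving out 1 library. Leaving out 1 library gave 3 to 9 members in AngII+BAI against Control (5) and 0 to 5 in AngII+GAS against Control (1).

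Over all genes, leaving out 1 library moved the adjusted count between 0 and 41 in AngII against Control (0), 0 and 184 in AngII+BAI (44), 0 and 61 in AngII+GAS (2) and 0 and 1 in AngII+ETH and AngII+VAL (0) against AngII, and between 8 and 954 in AngII+BAI against Control (190). The other settings gave 0 to 64, 0 to 102, 0 to 232, 0 and 0 to 19 for the first 5 in that order.

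The alternatives of the unfiltered Cacna1h fit were chosen after seeing the data. Its AngII against Control difference was 0.66 with quantile normalization, 2.91 with a pseudocount of 0.1 and 0.75 with neuron and skeletal muscle scores, and 0.78 to 0.94 leaving out 1 library. Reads limit Cacna1h in Control, where it had 0 to 35 reads.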
